A study of Rattus norvegicus with 6 samples.

Results

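Immediate early genes outside the AP-1 family were followed in RNA from knee articular cartilage of loaded and control rats. The group was chosen by gene symbol and holds 10 genes, all found in the table of 26981 features: the transcription factor genes Egr1, Egr2 and Egr3, the orphan nuclear receptor genes Nr4a1, Nr4a2 and Nr4a3, the feedback genes Dusp1, Btg2 and Zfp36, and Myc. The libraries came from male SD (Sprague-Dawley) rats that were labelled wild type and were 6 weeks old at the start, in a study of 70 rats in 7 groups. The control group had 3 libraries, told apart by their titles, since they carry no treatment label; the design names an unloaded group of 3. The loaded group had 3 libraries labelled with excessive mechanical load. By the design, the right knee and ankle of these anaesthetised rats were compressed axially every 2 days for 4 weeks, with 40 cycles of 10 s per session, each holding 5 N during 9 s and peaking at 20 N during 0.5 s. The time between the last compression and the collection of cartilage is not given in the sources used here. Whether every library is from its own rat is not stated in the labels, and p-values here reflect library-to-library spread, some of which may be technical.

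Immediate early genes are transcribed within minutes of a stimulus from transcription factors that are already in the cell, and their transcripts are short-lived. Growth factor and mechanical signals reach them through the MAP kinases ERK and p38, which activate ternary complex factors bound with serum response factor (SRF) at CArG boxes, and through CREB at cAMP response elements (CREs). EGR proteins are zinc finger activators whose action is limited by the corepressors NAB1 and NAB2, and NR4A proteins are nuclear receptors whose activity is set mainly by how much is made. DUSP1 dephosphorylates and switches off p38, JNK and ERK, ZFP36 (tristetraprolin) speeds the decay of messages with AU-rich elements such as that of Tnf, and BTG2 recruits the CCR4-NOT deadenylase complex. MYC, with its partner MAX, drives growth and ribosome production.

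The upstream regions of 4 of these genes are shown as examples. They hold matches to the elements that these signals are known to use, as do those of Egr2, Nr4a2 and Btg2. For Nr4a1 and Nr4a2 these were only the short CRE core described below, with no CArG box or full CRE. For 7 of the 10 genes, all but Egr3, Nr4a3 and Myc, a start site was taken from RefSeq (build GRCr8), and the 250 bases before it were searched on both strands. Each sequence below runs 5′ to 3′ on the gene's strand and ends at the base before the start. Capitals mark CArG boxes (the core of the serum response element) and the short CRE core TGACG, also read as CGTCA on the other strand; the full site TGACGTCA is 2 overlapping cores.
Egr1, chr18:26736828-26737077, plus strand: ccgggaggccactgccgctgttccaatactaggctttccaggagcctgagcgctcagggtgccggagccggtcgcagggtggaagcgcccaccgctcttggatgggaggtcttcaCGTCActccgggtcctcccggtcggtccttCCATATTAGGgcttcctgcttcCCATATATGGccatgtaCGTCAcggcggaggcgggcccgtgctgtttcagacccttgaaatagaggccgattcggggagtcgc
Nr4a1, chr7:134259888-134260137, plus strand: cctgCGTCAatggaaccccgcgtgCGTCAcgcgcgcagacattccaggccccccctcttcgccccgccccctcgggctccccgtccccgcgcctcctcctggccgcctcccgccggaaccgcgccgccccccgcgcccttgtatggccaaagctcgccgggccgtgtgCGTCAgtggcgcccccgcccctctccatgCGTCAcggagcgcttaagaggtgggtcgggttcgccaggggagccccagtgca
Dusp1, chr10:17184603-17184852, plus strand: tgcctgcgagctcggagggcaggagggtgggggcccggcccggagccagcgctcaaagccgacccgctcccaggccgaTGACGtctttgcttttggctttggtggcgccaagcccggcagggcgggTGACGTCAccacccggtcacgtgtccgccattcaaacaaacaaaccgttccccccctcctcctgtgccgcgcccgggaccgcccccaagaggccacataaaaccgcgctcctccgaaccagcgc
Zfp36, chr1:92799109-92799358, minus strand: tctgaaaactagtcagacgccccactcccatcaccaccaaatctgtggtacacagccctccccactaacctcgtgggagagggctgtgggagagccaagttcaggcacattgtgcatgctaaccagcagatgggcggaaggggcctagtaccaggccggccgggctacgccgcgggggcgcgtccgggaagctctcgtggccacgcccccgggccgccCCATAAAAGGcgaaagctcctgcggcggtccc

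A CArG box was found in 3 of the 7 regions and in 1.5% of 27457 rat regions of the same length. Egr1 had 2, at -105 to -96 and -83 to -74 from the start, Egr2 had 1 at -83 to -74, and that of Zfp36 lay at -32 to -23. The full CRE TGACGTCA was found in Dusp1 (-124 to -117) and Btg2 (-201 to -194), against 1.7% of all regions. The short core was present in 6 of the 7 regions, including 4 in Nr4a1, against 19% of all regions. The EGR site (GCGGGGGCG or GCGTGGGCG) occurred in Nr4a1 and Zfp36, against 2.94% of all regions, and the E-box CACGTG, a binding sequence of MYC with MAX, in Dusp1, against 5.79%. The NR4A monomer site AAAGGTCA was in 0 of the 7 and in 1.11% of all regions. These are matches of letters and were not tested for binding.

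**Figure D1:**
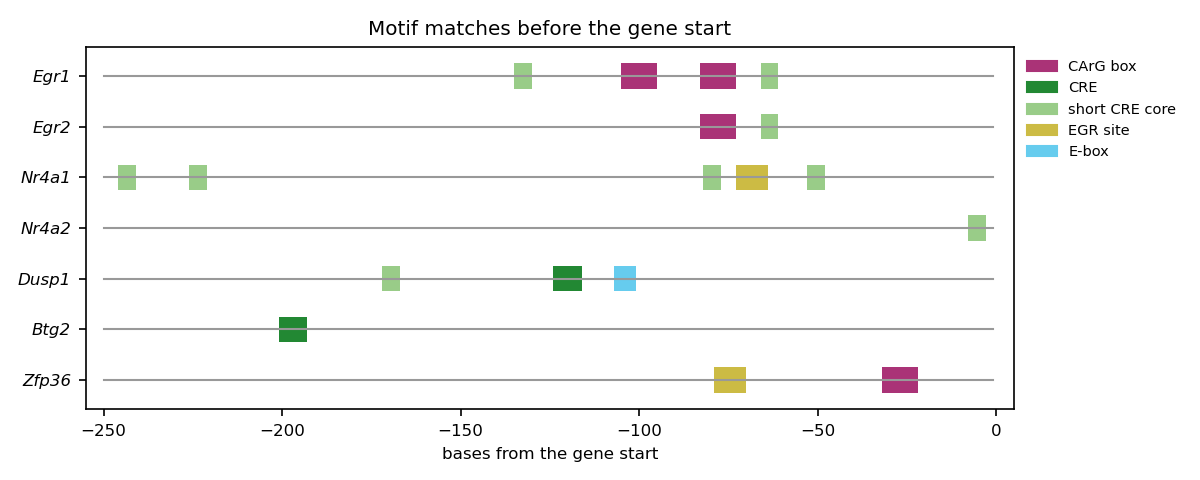
Position of motif matches in the 250 bases before the gene start for 7 immediate early genes, with each gene on its own line and the x axis in bases from the start. Coloured blocks are CArG boxes, CREs, short CRE cores, EGR sites and E-boxes. Egr1 carries 2 CArG boxes and Dusp1 and Btg2 carry a full CRE.

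The libraries held 28435307 to 40332904 counts, so that, by counting error alone, 0 counts in a library leave room for at most 0.0744 to 0.106 CPM (read counts scaled to a common library size), depending on the library. Cartilage genes were present but were a small part of the RNA: the 8 chondrocyte markers took 0.14% to 0.152% of counts in control and 0.207% to 0.228% in loaded libraries, while 6 erythroid markers took 13.6% to 14.8% and 12.9% to 14.0%. Shares of 10 neutrophil markers (4.26% to 4.59% and 3.06% to 3.65%) and 6 monocyte and macrophage markers (1.46% to 1.54% and 1.09% to 1.17%) were lower in every loaded library. Those of 5 skeletal muscle markers (0.56% to 0.579% and 1.44% to 1.45%) and 6 osteoblast markers (0.228% to 0.240% and 0.515% to 0.543%) were higher. By single genes, 5 of 5 muscle markers rose, and of 6 osteoblast markers 5 rose and 1, Alpl, fell. Of 9 tested neutrophil markers 6 fell and 1 rose, and of 6 monocyte and macrophage markers 3 fell and 2 rose. Of 8 chondrocyte markers 4 rose and 1 fell. All 4 megakaryocyte and 5 adipocyte markers fell. The largest part of the osteoblast share was that of Col1a1, at 1522 CPM in control and 3872 CPM in loaded libraries on average. The monocyte and macrophage share was mostly that of 1 gene, Lyz2, at 15060 CPM in control and 10740 CPM in loaded libraries on average, while Cd68 and Fcgr3a rose. No marker of these lists was at 0 in all libraries. Many of these cell types express immediate early genes, and the part of these shares in the results below was not tested. Fewer cells of a type and less RNA per cell cannot be told apart in such bulk samples.

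In loaded cartilage, transcripts of the kinase phosphatase Dusp1 were 3.04-fold higher than in controls and those of Zfp36 1.35-fold higher, Nr4a1 and Nr4a2 rose by smaller or less certain amounts, Myc fell to 0.569 of its control level, and Nr4a3 went from a low level to almost none. Egr1, Egr2, Egr3 and Btg2 were not called. Of the 10 genes, all of which passed the count filter, 4 rose and 2 fell when called at 0.05 on p-values from the edgeR quasi-likelihood F test, adjusted by Benjamini-Hochberg over all genes. Of all 16447 genes tested 35.8% were called, 17.9% as rises and 18% as falls, and with library totals in place of TMM scaling the share of calls that were rises went from 49.9% to 63.3%. The 3 loaded libraries lay wholly above or below the 3 control libraries for 7 of the 10 genes and for 47.9% of all genes tested. The median log2 fold change of the 10 was 0.10, beside 0.00 for all genes, and the median size regardless of sign was 0.58, beside 0.27.

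**Figure D2:**
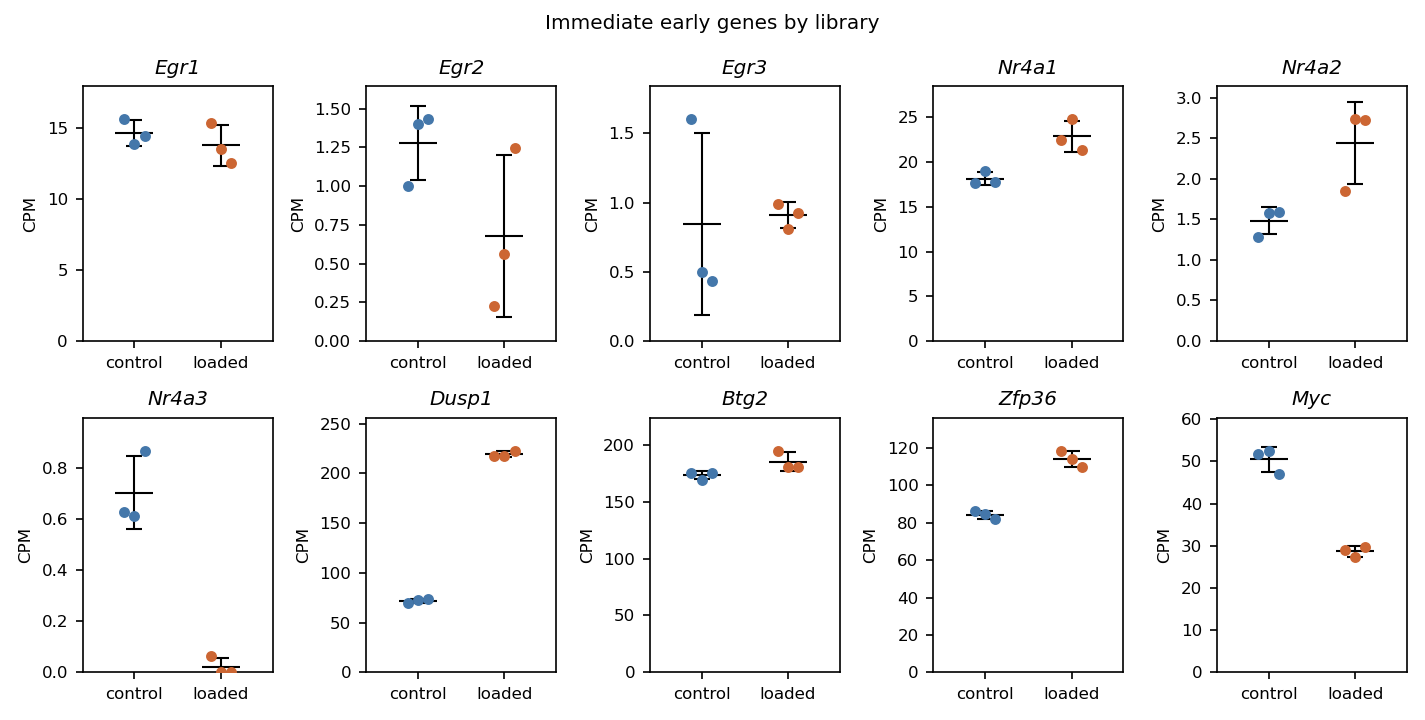
Level of the 10 immediate early genes in CPM on linear axes from 0, with a point per library (3 control, 3 loaded) and the mean with SD as a bar. Dusp1 sits at 69.8 to 73.6 CPM in control and at 218 to 223 CPM in loaded libraries, whereas the points of Egr1, Egr2 and Egr3 overlap between groups.

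Among the feedback genes, Dusp1 (ENSRNOG00000003977) stood at 69.8, 73.0 and 73.6 CPM in control 1 to 3 and at 218, 218 and 223 CPM in loaded 1 to 3. Every loaded library was far above every control library, and the spread within a group was small, 72.1 ± 2.04 and 219 ± 2.97 CPM (SD, n = 3 each). The 3.04-fold rise (SE 0.0454 on the log2 scale, adjusted p = 1.51e-12, edgeR) placed Dusp1 at percentile 97.9 of fold changes over all genes. Its call held in all 13 alternative analyses, with log2 fold changes of 1.58 to 1.68. In the authors' deposited table Dusp1 was likewise marked up, the one member past the thresholds there (false discovery rate 0.01 and 2-fold).

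Zfp36 (ENSRNOG00000058388) was measured at 86.2, 84.4 and 82.0 CPM in control and at 118, 114 and 109.7 CPM in loaded libraries. The groups did not overlap, with means of 84.2 ± 2.10 and 114 ± 4.38 CPM (SD, n = 3 each). It rose by 0.44 ± 0.0497 on the log2 scale (± SE, adjusted p = 6.67e-06, edgeR), and the call held in all 13 alternatives. Btg2 (ENSRNOG00000003300) had 175, 169 and 175 CPM in control and 195, 180.0 and 181 CPM in loaded libraries. Each loaded value lay above each control value, but the difference of 0.10 ± 0.0456 was not called (adjusted p = 0.122, edgeR), and its 95% interval ran from -0.00 to 0.19. With library totals the difference was 0.17 and passed (adjusted p = 0.0164), while over all 13 alternatives the adjusted p ran from 0.0164 to 0.384.

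Myc (ENSRNOG00000004500) had 51.8, 52.5 and 47.1 CPM in control and 28.9, 27.4 and 29.8 CPM in loaded libraries. All loaded libraries were well below all controls, with group means of 50.5 ± 2.97 and 28.7 ± 1.26 CPM (SD, n = 3 each). It fell by 0.81 ± 0.0657 on the log2 scale (± SE, adjusted p = 1.89e-07, edgeR), a 1.76-fold lower level, and kept its call in all 13 alternatives (-0.86 to -0.74). In the authors' deposited table its log2 fold change was -0.81, short of the 2-fold threshold used there.

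The NR4A genes moved in both directions. Nr4a1 (ENSRNOG00000007607, also called Nur77) was the most abundant of them, at 17.7, 19.0 and 17.8 CPM in control and 22.5, 24.8 and 21.3 CPM in loaded libraries. The groups did not overlap, and it rose by 0.33 ± 0.0896 (log2 ± SE, adjusted p = 0.00927, edgeR). Without control 3 the change was 0.31 and just missed the threshold (adjusted p = 0.0509, the highest of 13 alternatives, of which the lowest was 0.00283). Nr4a2 (ENSRNOG00000005600, Nurr1) had 45, 54 and 62 counts in control and 58, 78 and 94 counts in loaded libraries, or 1.29, 1.58 and 1.59 CPM and 1.85, 2.74 and 2.73 CPM. Loaded 1 was close to the controls and the other 2 loaded libraries were higher. Its rise of 0.71 ± 0.264 was at the edge of the threshold (adjusted p = 0.0474, edgeR) and was called in 4 of 13 alternatives, where the adjusted p ran from 0.0209 to 0.157. The 9 alternatives that lost the call included DESeq2, limma-voom, the fit without a count filter and those without control 1, 2 or 3 or loaded 2 or 3 (adjusted p = 0.0884 to 0.157 in these 5). Its sign did not change in any alternative. The authors' deposited DESeq2 comparison gave Nr4a2 a log2 fold change of 0.72 and a false discovery rate of 0.047. That was short of both thresholds used there but under 0.05.

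Nr4a3 (ENSRNOG00000005964, Nor-1) had 22, 21 and 34 counts in control libraries and 2, 0 and 0 counts in loaded libraries. The transcript was scarce in every control and nearly undetected in every loaded library. Over each group it had 77 and 2 counts, a ratio of control to loaded of 33.5 with an exact 95% counting interval of 8.97 to 282 after scaling for depth. The fitted change was -4.83 ± 0.912 (log2 ± SE, adjusted p = 0.000735, edgeR), a value that depends on the prior count at such levels. Without loaded 1, where both remaining loaded libraries were at 0, it was -7.60. The call held in all 12 alternatives that tested it, and a filter of at least 1 CPM in 3 libraries removed it. The authors' deposited table gives it no fold change or false discovery rate. As a share of the summed FPKM (the authors' values, scaled for transcript length and depth) of the NR4A genes, Nr4a1 held 92.75% ± 0.741 in control and 92.8% ± 1.43 in loaded libraries, and Nr4a3 1.92% ± 0.402 and 0.0416% ± 0.0720 (SD, n = 3 each).

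The EGR genes did not pass the test. Egr1 (ENSRNOG00000019422), the best known immediate early factor of mechanical and growth factor signals, had 15.6, 13.9 and 14.4 CPM in control and 15.3, 13.5 and 12.5 CPM in loaded libraries. Loaded 1 lay within the control range and loaded 2 and 3 below it, with a difference of -0.09 ± 0.109 on the log2 scale (adjusted p = 0.58, edgeR) and a 95% interval of -0.32 to 0.15. Changes of the size seen for Dusp1 or Myc lie outside that interval. Egr2 (ENSRNOG00000000640, Krox20) had 35, 48 and 56 counts in control and 7, 16 and 43 counts in loaded libraries, or 1.00, 1.40 and 1.43 CPM and 0.224, 0.561 and 1.247 CPM. Loaded 3 lay within the control range, and loaded 1 and loaded 2 lay below every control. Its difference of -0.90 ± 0.500 was not called (adjusted p = 0.185, edgeR). Without loaded 3 it was -1.71 and passed (adjusted p = 0.0173), and over its 13 alternatives the adjusted p ran from 0.0173 to 0.42. The loaded libraries had a coefficient of variation of 77.0% for Egr2, against 18.8% in control.

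Egr3 (ENSRNOG00000017828) had 56, 17 and 17 counts in control and 31, 23 and 32 counts in loaded libraries. Control 1 was above all other libraries and the remaining controls were below all loaded libraries, so the fitted difference (0.11 ± 0.498, adjusted p = 0.892, edgeR) rests on which control is used. Without control 1 it was 0.96, without control 2 -0.16 and without control 3 -0.21, none of them called (adjusted p = 0.21 to 0.963 over 12 alternatives). The authors' FPKM did not follow the counts for Egr3: they were 0.562, 0.377 and 0.337 in control and 0.375, 0.323 and 0.353 in loaded libraries. Dividing the depth-scaled count by FPKM gives the transcript length in kilobases that the table implies. For Egr3 it was 2.74 in control 1, 1.305 and 1.252 in control 2 and 3, and 2.50 to 2.77 in loaded libraries, a ratio of 2.21 between the highest and lowest. For the other members but Nr4a3 the ratio was at most 1.04. The cause of this was not tested, and no direction can be read for Egr3.

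**Figure D3:**
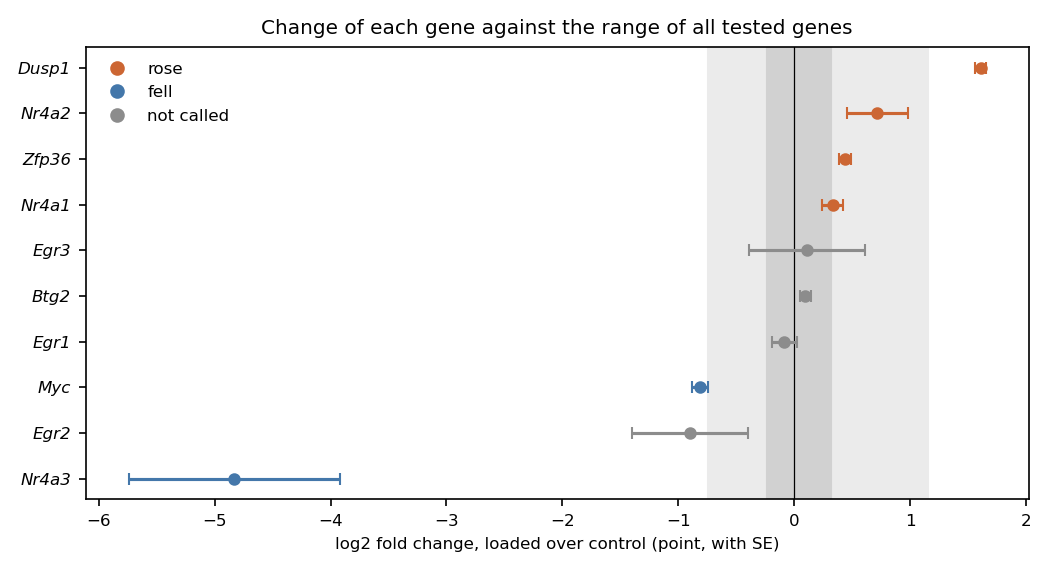
Log2 fold change of loaded over control for each gene (point) with its SE (bar), coloured by call. The dark band holds the 25th to 75th and the light band the 5th to 95th percentile of all 16447 genes tested; Dusp1, Myc, Egr2 and Nr4a3 lie outside the light band (-0.75 to 1.153).

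Levels of different genes were compared per transcript length, by FPKM. In control libraries the order was Btg2 (61.8 ± 0.108 FPKM), Zfp36 (42.5 ± 1.47), Dusp1 (34.0 ± 1.40), Myc (19.7 ± 1.49), Nr4a1 (6.89 ± 0.444), Egr1 (4.27 ± 0.199), and then Egr3, Nr4a2, Egr2 and Nr4a3, all below 1 FPKM (SD, n = 3 each). The place of Egr3 rests on the FPKM of control 2 and 3, which did not follow its counts, so its order against Nr4a2 and Egr2 cannot be read. The ranges of Egr3 and Nr4a2 overlapped, as did those of Nr4a2 and Egr2, and every other pair of neighbours was separate. In loaded libraries Dusp1 stood first (110.3 ± 3.77 FPKM), ahead of Btg2 (70.35 ± 4.70) and Zfp36 (61.3 ± 3.18), and then came Myc (12.01 ± 0.781), Nr4a1 (9.08 ± 0.488) and Egr1 (4.28 ± 0.507). Egr3 and Egr2 overlapped there, and Nr4a3 was last, with 2 libraries at 0. The feedback genes had higher levels than those for EGR and NR4A factors in both groups.

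**Figure D4:**
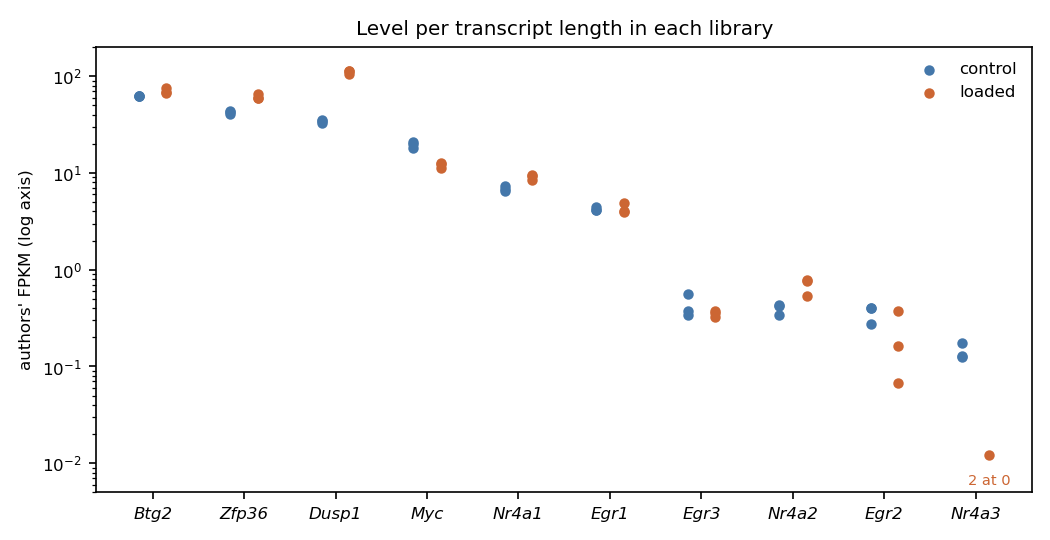
The authors' FPKM of each gene in each library on a log axis, in the order of the control means; points are libraries. Dusp1 moves from rank 3 in control to rank 1 in loaded libraries, and Nr4a3 is at 0 in 2 loaded libraries, which are written as text.

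The genes whose profiles over the 6 libraries were nearest to each member were found by the root mean square difference of centred log2 CPM, among genes with a mean of at least 5 CPM. Because the profiles span both groups, nearness largely restates a like difference between loaded and control libraries. Nearest to Dusp1 was the interferon-induced GTPase gene Mx1 (difference 0.0276), followed by AC098959.1 and Dhrs7c. Their log2 fold changes were 1.599, 1.608 and 1.521, beside 1.605 for Dusp1. Nearest to Myc were Bcl3 (0.0492), Hbegf (0.0532), a growth factor gene, and Sparcl1. For Zfp36 they were Ppox, Hnrnpdl and Blnk (0.0164 to 0.0236), for Nr4a1 Khdrbs3, Mgat4b and Pdlim7 (0.0315 to 0.0335), and for Egr1 Spidr, Slco4c1 and Dolpp1 (0.0255 to 0.0361). Btg2 was nearest to Med26, Gpr141 and Ublcp1 (0.0165 to 0.0218). The scarce members had no gene as near: Nr4a2 was nearest to Pdzrn3 (0.0664), Nr4a3 to AABR07051726.1 (0.173), Egr3 to AABR07071891.1 (0.378) and Egr2 to Nrp1 (0.382).

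Genes around these members were read from 12 lists. They held 150 distinct tested genes, of which 36 rose and 36 fell (48.0% called, beside 35.8% of all genes), with a median log2 fold change of -0.03. The AP-1 genes, the other classical immediate early family, rose in 5 of 7 cases and fell in none (71.4% called), with a median of 0.47. Fos rose from 6.16 ± 0.558 to 32.9 ± 2.62 CPM, Junb from 53.8 ± 1.70 to 163 ± 7.40 CPM and Jun from 34.3 ± 1.499 to 47.6 ± 2.39 CPM (SD, n = 3 each). Without control 1, 3 of the AP-1 genes rose. Fos and Junb thus rose by more than 2-fold in the same libraries in which Egr1 was not called; the difference between the AP-1 and EGR genes was not tested.

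Of 30 tested genes on a list of other immediate early genes 6 rose and 7 fell, with a median of -0.05. The share called was 43.3%, beside 35.8% of all genes. Cyr61, a matricellular gene and YAP target, rose from 25.3 ± 2.64 to 40.9 ± 0.868 CPM. Ctgf, also a YAP target, was not called (-0.06, adjusted p = 0.316, edgeR). The flow-responsive factor Klf2 fell by 0.34 ± 0.0593 on the log2 scale (± SE). Klf10, a TGF-beta-induced factor, fell by 0.33 ± 0.0635. The other falls were those of Klf4 (-0.39), Ier3 (-0.34), Nfkbia (-0.24), Tnfaip3 (-0.57) and Rgs2 (-0.18). The other rises were those of the kinase Sik1 (0.47), the stress genes Gadd45g (0.53), Ppp1r15a (0.22) and Atf3 (0.60), and the repressor Nfil3 (0.24). Nfil3 lost its call without control 3 or loaded 3 (adjusted p = 0.0657 and 0.0534). With library totals 4 genes of the list fell. Cytosolic heat shock genes, which stress also induces, rose in 2 of 6 cases and fell in 1 (50% called). Hspa1a rose from 3.48 ± 0.235 to 13.9 ± 2.74 CPM and Hspb1 by 0.57, while Dnajb1 fell by 0.27. Without loaded 1, 2 heat shock genes fell.

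Upstream of the members, genes of the SRF, CREB and ERK inputs rose in 4 and fell in 6 of 26 cases (median -0.05). The share called, 38.5%, was near the 35.8% of all genes. The p38 gene Mapk14 fell by 0.34 ± 0.0418 (log2 ± SE). Mef2c, a MADS box factor of muscle, cartilage and bone, rose by 0.75 ± 0.0621, and Mef2a and Crem, a CREB relative, rose by 0.46 each. Of the ERK kinase genes, Map2k2 rose (0.25) and Map2k1 fell (-0.24). Rps6ka1 also fell (-0.30). Srf and its cofactor Mrtfa, chosen here after their values were seen, fell by 0.23 ± 0.0523 and 0.64 ± 0.0873, and Srf missed the threshold with library totals (-0.15, adjusted p = 0.0577).

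Of 9 tested genes for other MAP kinase phosphatases 1 rose and 2 fell (median -0.11). The share called, 33.3%, was near the 35.8% of all genes. Dusp2, an ERK and p38 phosphatase of leukocytes, fell from 25.7 ± 0.915 to 13.2 ± 0.473 CPM, and the ERK phosphatase Dusp6 fell by 0.39 ± 0.0711. Dusp10, which acts on p38 and JNK, rose from 5.95 ± 0.614 to 9.31 ± 0.730 CPM, and without control 2, 2 genes of the list rose. Dusp1 and Zfp36 are also induced by glucocorticoids, and the part of glucocorticoids in their rises was not tested. On a list of 8 other glucocorticoid-responsive genes 3 rose and 2 fell (62.5% called, median -0.07). Pdk4 rose by 1.00 ± 0.137, Tsc22d3 by 0.35 ± 0.0559 and Sgk1 by 0.18 ± 0.0578. The clock gene Per1 fell by 1.07 ± 0.142 and Fkbp5 by 0.42 ± 0.0639.

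Among ZFP36 relatives and transcripts known as its AU-rich targets, 3 rose and 3 fell of 8 tested (13 listed, 5 of them too scarce for the filter). The share called was 75%, beside 35.8% of all genes. Tnf fell from 3.79 ± 0.449 to 0.538 ± 0.219 CPM, while the cyclooxygenase gene Ptgs2 rose from 1.94 ± 0.380 to 7.63 ± 1.58 CPM and Vegfa from 23.1 ± 1.62 to 38.5 ± 1.00 CPM. With library totals 1 gene of this list fell. Deadenylase genes and relatives of Btg2 rose in 4 of 8 cases and fell in none (50% called, median 0.16). Among them were Cnot7 (0.38), Btg3 (0.37) and Tob1 (0.26).

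EGR corepressors and targets showed few calls, 1 rise and 1 fall of 13 (15.4%, beside 35.8% of all genes; median 0.05). The corepressor genes Nab1 and Nab2 differed by 0.03 ± 0.0757 and 0.24 ± 0.125 (adjusted p = 0.83 and 0.158, edgeR), and neither was called. The cell cycle inhibitor gene Cdkn1a, which p53 also controls, rose from 7.86 ± 0.463 to 19.6 ± 0.378 CPM, and the heparanase gene Hpse fell from 22.6 ± 1.35 to 13.5 ± 1.97 CPM. Without control 1 or loaded 2, 2 genes of the list rose. Of the 3 genes for the retinoid X receptors, with which NR4A1 and NR4A2 form heterodimers, Rxrg rose by 0.95 ± 0.138 and Rxrb by 0.42 ± 0.0895.

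Around Myc, its partners and antagonists rose in 1 and fell in 5 of 12 cases (50% called, beside 35.8% of all genes, median -0.16). The antagonist genes Mxi1, Mnt and Mxd1 fell by 0.29 ± 0.0459, 0.56 ± 0.108 and 0.22 ± 0.0451, so that genes on both sides of the network were lower. Mxd3 rose by 0.15 and lost its call without control 2, control 3 or loaded 1, when 0 genes of the list rose, and with library totals 2 rose and 3 fell. Of 20 genes known as MYC targets 4 rose and 9 fell (65% called, median -0.15). Pa2g4, a ribosome assembly gene, fell by 0.27 ± 0.0466. The nucleolar genes Gnl3, Nop58 and Ncl rose by 0.50 ± 0.0633, 0.36 ± 0.0589 and 0.14 ± 0.0382, and the cap-binding gene Eif4e rose by 0.16. Fbl (-0.35), Mybbp1a (-0.32) and Polr1b (-0.53), also nucleolar, were among the 9 falls. Ncl and Eif4e lost their calls without control 3 (adjusted p = 0.0815 and 0.0531), and 2 genes then rose.

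**Figure D5:**
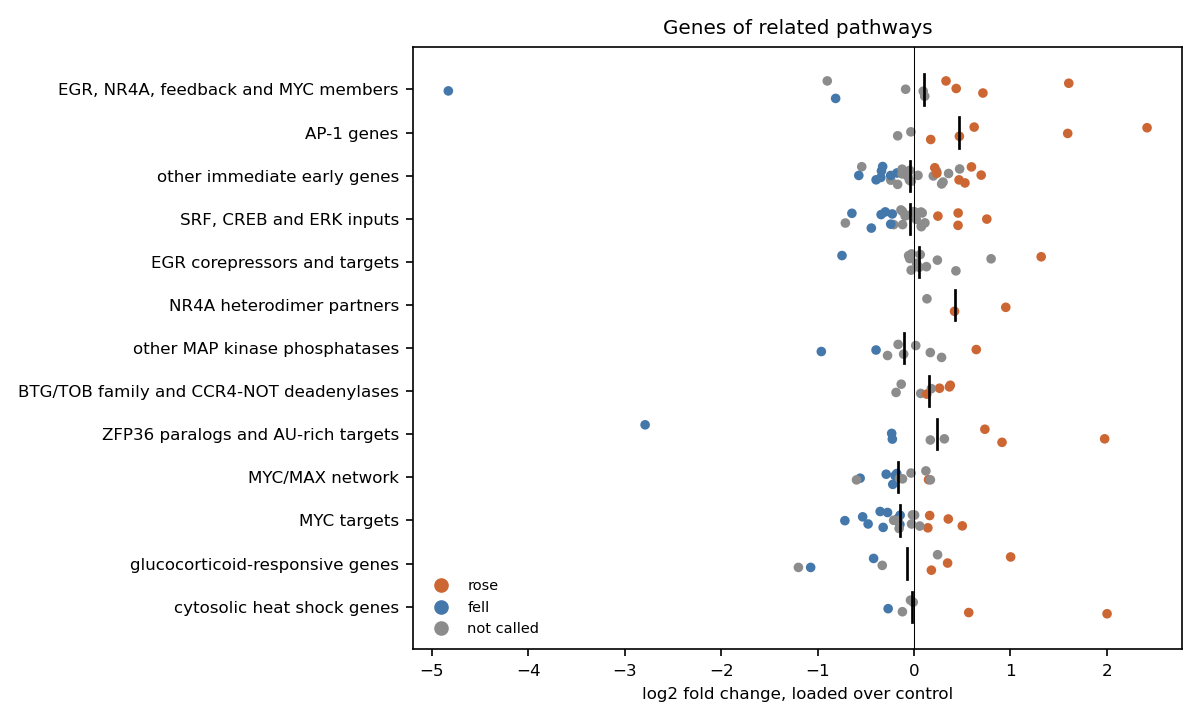
Log2 fold change of loaded over control for each tested gene of the member group and of 12 related lists, coloured by call, with the list median as a black line. AP-1 genes have the highest list median (0.47) and genes of the MYC/MAX network the lowest (-0.16), while most lists hold both rises and falls.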

How the data were processed

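The authors deposited a table of raw read counts per gene with FPKM values and their own DESeq2 comparison (false discovery rate and log2 fold change), per the file headers. The submitters' processing notes name HISAT2, DESeq2 and the mouse build mm10, yet the identifiers are rat Ensembl genes, so the build is uncertain; no source used here gives the counting tool or strand setting. Of 26991 lines, 10 broken ones were dropped. Genes sharing sequence or overlapping on the other strand may share reads. Scripts were tested on simulated data. Counts were tested with edgeR 4.0.16 in R 4.3.3 (filterByExpr, 16447 genes kept; TMM factors 0.961 to 1.05; robust quasi-likelihood F test; Benjamini-Hochberg threshold 0.05). Standard errors come from each log2 fold change over the root of F. CPM use TMM-scaled libraries. With 3 against 3 libraries an exact permutation p cannot go below 0.1, so none is given. Alternatives used DESeq2 1.42.0, limma-voom (limma 3.58.1), other scalings and filters, a replicate block and each library left out.

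The members and lists were chosen with earlier results of these data known. By rule, up to 3 called genes per list with the smallest adjusted p were named, plus those called against the list's majority. Other list genes were named outside this rule, with their values known. They were Srf, Mrtfa, Map2k1, Rps6ka1, Nab1, Nab2, Ctgf, Klf4, Ier3, Nfkbia, Tnfaip3, Rgs2, Tsc22d3, Sgk1, Fbl, Mybbp1a and Polr1b. A gene that this rule also names is not reported here. Of 163 list symbols, 159 matched the table.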

Additional observations from a re-analysis of the deposited data

How the results depend on the processing

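Dusp1, Zfp36, Myc, Egr1 and Nr4a3 kept their direction and their side of the threshold in every alternative that tested them. Nr4a2 lost its call in the DESeq2 fit made here (0.71), limma-voom (0.69), without a count filter (0.71) and with the replicate block (0.70). Btg2 gained a call with library totals (0.17). With at least 1 CPM in 3 libraries, 1 member fell, because Nr4a3 was no longer tested, and Egr3 was not tested there either. Leaving out 1 library gave log2 fold changes of 0.62 to 0.88 for Nr4a2, 0.27 to 0.38 for Nr4a1, -1.71 to -0.48 for Egr2 and -0.21 to 0.96 for Egr3, whose sign turned without control 2 (-0.16) or control 3 (-0.21). It gave 2 to 4 members that rose and 2 to 3 that fell. The replicate block rests on a shared number only: deviations of same-numbered libraries correlated at -0.014, 0.046 and 0.021, and not every library correlated best with its own number, and under the block 3 members rose and 2 fell, 2655 genes rose and 2694 fell. Depth limits Egr2, Egr3, Nr4a2 and Nr4a3, which had under 100 counts in every library.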
